A study of Mus musculus with 4 samples.

Results

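The 81 mouse genes for collagen chains, laminin chains and integrin subunits were examined in a map of NFIC occupancy in the pancreas. NFIC is a transcription factor of the nuclear factor I (NFI) family, and chromatin immunoprecipitation followed by sequencing (ChIP-Seq) marks the places on DNA where it was bound. A peak was taken when the gene that the list names as nearest to it was a collagen (Col, a number, a, a number), a laminin (Lama, Lamb or Lamc), or an integrin (Itga or Itgb). The rule selected 54 of 15824 peaks, which named 31 of the 81 genes that fit these names in RefSeq (38.3%, 95% Wilson interval 28.4 to 49.2%). Over all 21031 protein-coding genes, 37.1% were named by at least 1 peak.

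The ChIP group held 3 libraries made from mouse pancreas with an antibody to NFIC (Bethyl, A303-123A), and the control group held 1 library of input DNA, with no antibody. All 4 carried the strain label Mixed, the mice were 8 to 12 weeks old by the series' design text, and the labels stated no treatment or engineered allele. The study describes the mice of its NFIC ChIP-Seq as wild type, and gives them a narrower age range than the design text does. The authors deposited 1 list of peaks for the 3 ChIP libraries together, so that no value per library, no replicate error and no test between groups could be obtained, and the depth is unknown. No value of the input library was analysed here. Each peak was 173 bases wide and carried the authors' score. The labels name MACS2 as peak caller. The study's methods name HOMER for peak calling, in a paragraph on published data, and the list's focus ratio column is one that HOMER writes. What the score measures and its scale could therefore not be settled from the sources used here. The score was used only to order peaks, and ran from 3.39 to 68.1 over the whole list, with a median of 6.57.

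Collagens are trimers of alpha chains. The fibrillar types (I, II, III, V, XI and the minor XXIV and XXVII) form the fibres of connective tissue and are made in the pancreas mainly by fibroblasts and stellate cells. Collagen IV and the laminins, which assemble from an alpha, a beta and a gamma chain, form the sheets of the basement membrane on which acinar, ductal and endothelial cells rest. Integrins are receptors of 1 alpha and 1 beta subunit through which cells hold on to these proteins. Whole pancreas was used, so a peak could not be assigned to a cell type.

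The list was first read at the genes that mark the cell types of the tissue. Of 9 acinar markers, 8 were named by a peak (Bhlha15, Cela2a, Cpa1, Ctrb1, Nr5a2, Pnlip, Ptf1a and Rbpjl, but not Prss2). Of the ductal markers 3 of 4 were named, of the endothelial markers 2 of 3, of the fibroblast and stellate markers 2 of 6 (Col1a1 and Vim), of the islet markers 1 of 5 and of the leukocyte markers 0 of 3. Col1a1 is itself a member of the gene set described here. Over all protein-coding genes 37.1% were named by a peak. With 3 to 9 markers a cell type, no difference from that share or between cell types was tested. The counts give genes near occupied sites, and neither the amount of each cell type nor the expression of the gene.

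NFI proteins bind DNA as dimers, and their full site is a palindrome of the arms TGGC and GCCA with a gap of 5 bases, TGGCNNNNNGCCA. In the 200 bases centred on each peak, this site was searched on the mm10 genome, allowing at most 1 mismatch in the 8 fixed bases. The site reads the same on both strands, so 1 search covers them. It was present in 32 of 54 peaks of the collagen, laminin and integrin genes (59.3%, Wilson interval 46.0 to 71.3%) and in 51.8% of all peaks. A site without mismatch lay in 9 of 54 (16.7%, 9.02 to 28.7%) and in 13.4% of all peaks. Both shares over all peaks lay inside the members' intervals. The following lines show 8 of the sites without mismatch, because they are the places where the members' sequence meets the NFI palindrome exactly. The site is in capitals, 6 bases flank it on each side, and each is written 5′ to 3′ on the strand of the gene with the mm10 position of the site. The ninth, in Lama3, is not printed.
Itgb5 (chr16:33892195-33892207, + strand): cagtccTGGCCCCGTGCCAggattc
Col26a1 (chr5:136791080-136791092, - strand): tctgctTGGCTACAAGCCAaacagc
Col26a1 (chr5:136802988-136803000, - strand): aaggtaTGGCGGGGGGCCAggcctg
Itga5 (chr15:103367023-103367035, - strand): ccctgtTGGCCGGACGCCAgaggag
Itga9 (chr9:118578535-118578547, + strand): gactatTGGCTCCATGCCAagatta
Itga9 (chr9:118622510-118622522, + strand): tccagtTGGCCAGCAGCCAgctgaa
Col18a1 (chr10:77144551-77144563, - strand): acacttTGGCTCTAAGCCAtcaggt
Col12a1 (chr9:79730541-79730553, - strand): ctttccTGGCCATCTGCCAactctg

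Of these 8 sites 7 fell in intron or intergenic peaks and 1 in a promoter peak, that of Itga5. The scores of their peaks ran from 5.58 (Col12a1 and the weaker Col26a1 peak) to 12.9 (Itgb5), so an exact site did not mark the highest scores. The 3 highest-scoring member peaks, at Col16a1, Itga2b and Itga7, each had sites with 1 mismatch only. The next lines give the best site of 6 of the 10 highest-scoring member peaks, since they carry strong signal without an exact site, and that of the Itgav promoter, as a promoter peak of an integrin. The Col16a1 promoter and the strongest Lama5 peak are shown further on. The substitution after the position names the consensus base, its place counted from 1 at the T of TGGC on the gene's strand, and the base in the genome.
Itga2b (chr11:102467055-102467067, - strand, G10C): tcagctTGGCGGTGACCCAggcaag
Itga7 (chr10:128938632-128938644, + strand, C11T): caattcTGGCAGGGTGTCAactgga
Col12a1 (chr9:79714640-79714652, - strand, T1C): gtggctCGGCTGGGTGCCAgggttt
Lamb3 (chr1:193330407-193330419, + strand, G3C): gccggcTGCCAAACCGCCAggtggc
Lamc1 (chr1:153274883-153274895, - strand, G10T): gggtgtTGGCAGTTCTCCAggatgt
Col18a1 (chr10:77130687-77130699, - strand, C11A): cagtctTGGCTGCCAGACAagtcca
Itgav (chr2:83724258-83724270, + strand, T1A): ggctggAGGCGCGCTGCCActgccc

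The 3 classes named in the design of the comparison were the fibrillar collagens (11 genes), the basement-membrane genes (collagen IV, the basement-membrane-associated collagens VII, XV, XVII and XVIII, and the laminins; 21 genes) and the integrins (26 genes), and the remaining 23 collagens were kept apart. At least 1 peak named 2 of 11 fibrillar collagens (18.2%, Wilson interval 5.14 to 47.7%), 10 of 21 basement-membrane genes (47.6%, 28.3 to 67.6%), 13 of 26 integrins (50%, 32.1 to 67.9%) and 6 of 23 other collagens (26.1%, 12.5 to 46.5%). The fibrillar collagens had the lowest share and the integrins the highest. All 4 intervals overlapped and each held the share over all protein-coding genes, so the classes were not separated by these counts, and the difference was not tested. With peaks at or above the median score only, the basement-membrane count was 5 of 21, beside 5 of 23 other collagens, 10 of 26 integrins and 2 of 11 fibrillar collagens. The share over all protein-coding genes was not computed at that floor. These counts therefore cannot be set against the 37.1% obtained with every peak.

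The share with a peak moves with gene length. Of all protein-coding genes of 50 kb or longer, 52.6% were named by a peak, against 32.5% of the shorter ones. The median length was 45.1 kb for the fibrillar collagens, 114 kb for the basement-membrane genes, 56.4 kb for the integrins and 107 kb for the other collagens, and 17.7 kb for all protein-coding genes. Among the members of 50 kb or longer, 20 of 51 had a peak (39.2%, 27 to 52.9%), and among the shorter members 11 of 30 (36.7%, 21.9 to 54.5%). Within the long genes a peak named 1 of 5 fibrillar collagens, 8 of 16 basement-membrane genes, 6 of 14 integrins and 5 of 16 other collagens.

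**Figure D1:**
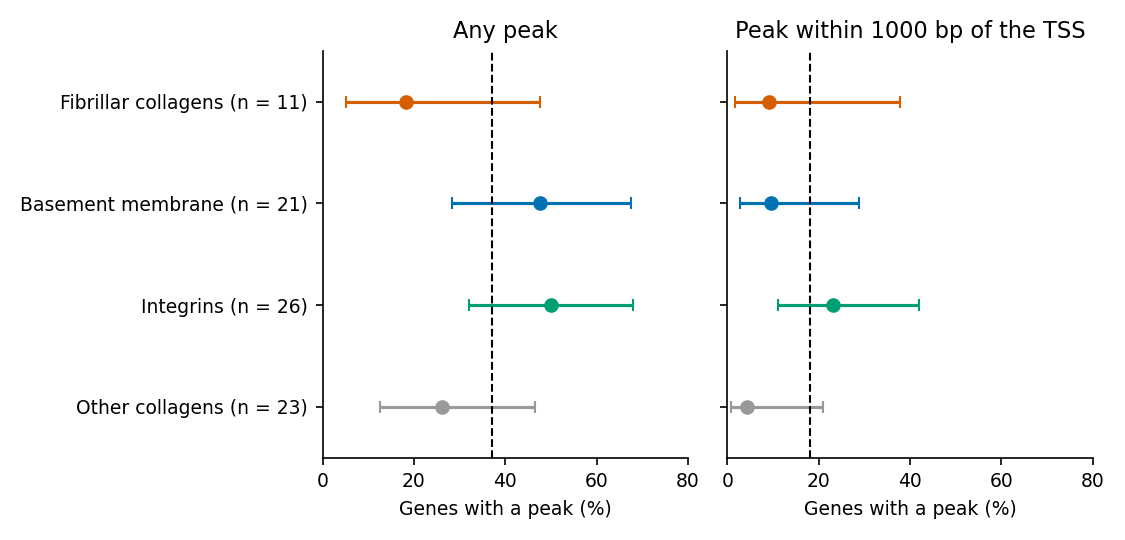
Share of genes (percent, horizontal axis) with any peak (left) and with a peak within 1000 bp of the transcription start site (right), for the 4 classes. Points are shares, bars are 95% Wilson intervals over genes, and the dashed lines mark all protein-coding genes (37.1% and 18.1%). All intervals on the left cross the dashed line.

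Few of the members were occupied at the promoter. A peak centre from 1000 bp upstream to the transcription start site (TSS) was found for 4 of 81 genes (4.94%, 1.94 to 12.0%), and for 10.7% of all protein-coding genes, which lay inside the interval of the members. The 4 genes were Col16a1, Itga5, Itgav and Lamc1, and the fibrillar collagens had 0 of 11. When the window was carried on to 1000 bp downstream, 10 of 81 genes had a peak (12.3%, 6.85 to 21.3%), against 18.1% of all protein-coding genes, and the 6 that joined were Col1a1, Itga1, Itga6, Itgb1, Itgb4 and Lama4. In that window were 6 of 26 integrins, 2 of 21 basement-membrane genes, 1 of 11 fibrillar collagens and 1 of 23 other collagens. Of the 10 genes 6 were thus integrins, and the Wilson interval of the integrins (11 to 42.1%) overlapped those of the 3 collagen and laminin classes. It also held the 18.1% of all protein-coding genes, as did the interval of all members. From 1000 bp upstream to the TSS only, 2 of 26 integrins had a peak (7.69%, 2.14 to 24.1%), beside 10.7% of all protein-coding genes.

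Most of the occupied sites were inside introns. By the list's own annotation 37 of 54 member peaks were in introns (68.5%, 55.3 to 79.3%), against 40.8% of all peaks, which lay under the members' interval. Of the others 9 were intergenic, 7 were in the promoter-TSS class and 1, at Itga1, was in a 5′ untranslated region. Intron peaks made up 1 of 3 for the fibrillar collagens, 14 of 19 for the basement-membrane genes, 16 of 23 for the integrins and 6 of 9 for the other collagens. The member genes are long, and how far their length accounts for the intron share was not tested. Of the 54 peaks 37 lay inside the body of the gene that they name, 3 just upstream of it in its promoter class, 5 inside another gene and 9 in intergenic DNA.

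The median absolute distance to the TSS was 14850.5 bp for the members (6385 to 21931 bp, binomial interval of the median) and 10438.5 bp for all peaks. By class it was 8299 bp for the fibrillar collagens (799 to 111033 bp over 3 peaks), 17051 bp for the basement-membrane genes (5558 to 29372 bp), 6385 bp for the integrins (2149 to 25550 bp) and 27248 bp for the other collagens (4090 to 92135 bp). The median was lowest for the integrins, and the intervals overlapped. The order of the other classes depended on the counting: with 1 peak a gene, the highest-scoring, the medians were 59666 bp for the fibrillar collagens, 28775 bp for the basement-membrane genes, 2760 bp for the integrins and 18870.5 bp for the other collagens. With peaks at or above the median score only, the fibrillar median was also 59666 bp. Of the 54 peaks 10 lay within 1000 bp of the TSS, 30 beyond 10000 bp and 12 beyond 50000 bp.

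The median scores of the 4 classes lay close together when every peak was counted, and farther apart with 1 peak a gene. The median score was 7.17 for all members (6.17 to 8.56), and 32 of 54 peaks were at or above the median of all peaks (59.3%), as were 51.6% of all peaks, since many values tie. It was 7.97 for the 3 peaks of the fibrillar collagens, 7.17 for the 19 of the basement-membrane genes (5.38 to 9.96), 7.37 for the 23 of the integrins (5.58 to 9.76) and 6.57 for the 9 of the other collagens (5.58 to 14.1). The medians differed by less than the width of any of these 3 intervals. With the highest-scoring peak of each gene only, they were 8.27 for the fibrillar collagens (2 peaks), 6.18 for the basement-membrane genes (10), 9.76 for the integrins (13) and 10.2 for the other collagens (6). The order of the classes turned, but each value stayed within the interval of its class over every peak, for the fibrillar collagens the range. The integrin value was at the upper end of its interval. Of the 54 peaks 16 were at or above the upper quartile of all scores, 9.16. Genes with a peak had 1.74 peaks each on average, in the members as over all named genes. Of the 31 members 16 had 1 peak, 9 had 2, 5 had 3 and Col18a1 had 5.

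**Figure D2:**
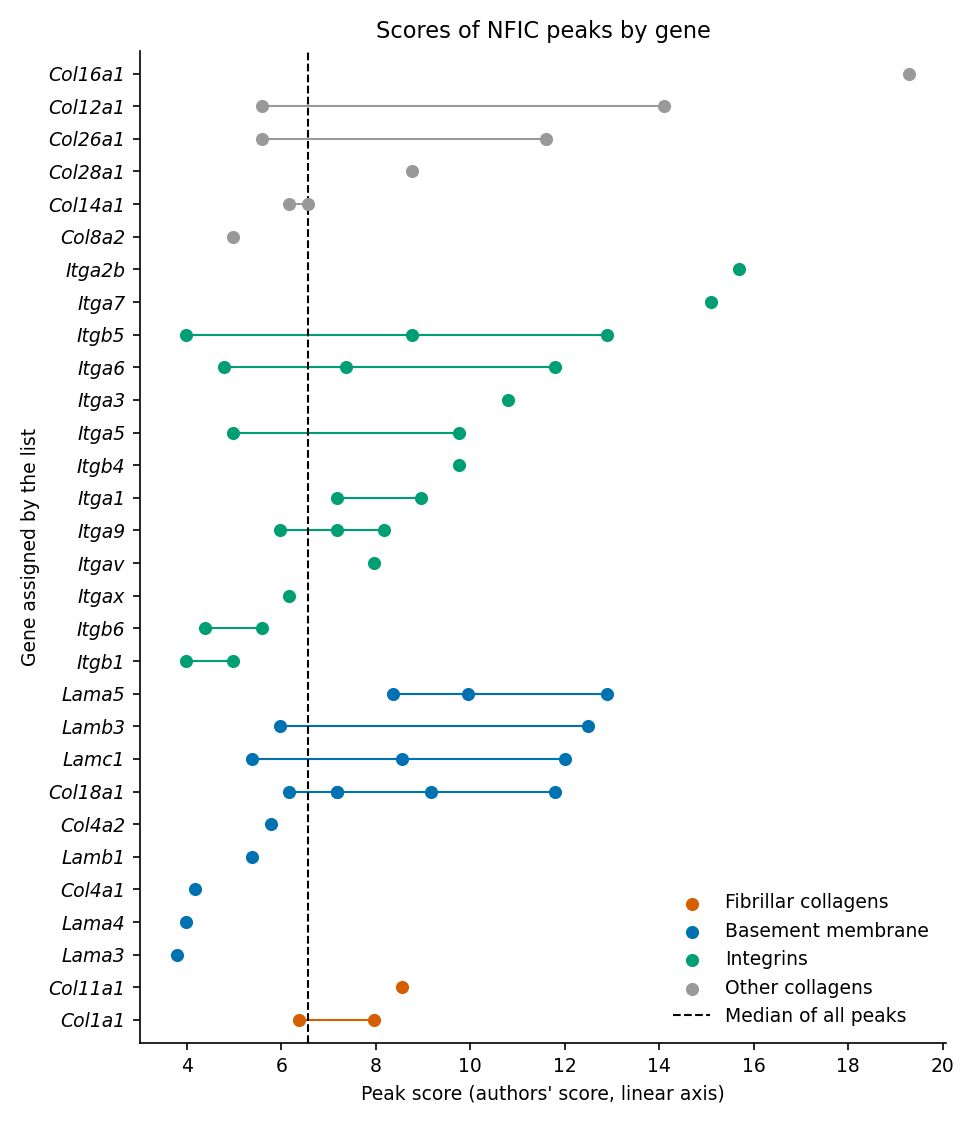
Score of 53 of the 54 peaks (horizontal axis, authors' score) by the gene that the list names (vertical axis), coloured by class. Each point is a peak, lines join the peaks of a gene, 2 Col18a1 peaks share the value 7.17, and the dashed line is the median of all peaks (6.57). Col16a1, Itga2b and Itga7 reach the highest scores with 1 peak each.

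The fibrillar collagens, which build the interstitial fibres, had 3 peaks at 2 genes. Col1a1, the main chain of type I collagen, had a peak of score 7.97 at 8299 bp upstream of its TSS, in intergenic DNA, and a peak of score 6.37 at 799 bp downstream, in intron 1 of 50. Only the upstream peak held the NFI full site, and it held 2 copies, each with 1 mismatch. Col11a1, a chain of the fibril-nucleating type XI collagen, had a peak of score 8.56 as far as 111033 bp upstream, in a long terminal repeat (RLTR34C_MM), with no full site. No peak named Col1a2, the partner chain of Col1a1, nor Col3a1, Col2a1, Col5a1, Col5a2, Col5a3, Col11a2, Col24a1 or Col27a1. The 2 chains of type I collagen thus differed, with 2 peaks at Col1a1 and 0 at Col1a2. The sequences of both Col1a1 peaks are given to show this contrast, on the + strand, with the NFI sites in capitals in the upstream one and none in the intron.
Col1a1 upstream (chr11:94927839-94928011): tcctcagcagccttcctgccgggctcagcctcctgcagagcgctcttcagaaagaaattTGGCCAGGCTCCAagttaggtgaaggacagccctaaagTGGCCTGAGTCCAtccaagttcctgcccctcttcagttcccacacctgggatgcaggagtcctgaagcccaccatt
Col1a1 intron 1 (chr11:94936937-94937109): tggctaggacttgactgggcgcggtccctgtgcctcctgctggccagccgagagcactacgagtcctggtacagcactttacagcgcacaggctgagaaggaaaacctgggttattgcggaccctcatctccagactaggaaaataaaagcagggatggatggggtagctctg

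Collagen IV is the network-forming collagen of basement membranes, and its 6 genes lie as 3 head-to-head pairs that share a start region. Peaks named Col4a1 and Col4a2, which encode the chains found in every basement membrane, and neither lay inside the gene it named. The peak assigned to Col4a1 (score 4.18, 80079 bp upstream) was in intron 4 of 47 of Col4a2, and the peak assigned to Col4a2 (score 5.78, 97318 bp upstream) was in intron 40 of 51 of Col4a1. The 2 genes start side by side on opposite strands, so each peak lay nearly as far from the one start as from the other, 80079 against 80100 bp for the first and 97318 against 97339 bp for the second, and the few bases between decided the assignment. Another peak of score 7.37, in intron 20 of 47 of Col4a2, was assigned by the list to E230013L22Rik. The bodies of the pair therefore held 3 peaks, 2 below and 1 above the median of all peaks, and the nearest to the shared start lay 80058 bp from it. No peak lay inside Col4a3 and Col4a4 on chromosome 1 or Col4a5 and Col4a6 on chromosome X, the chains of the more specialised membranes of kidney and lung.

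Col18a1, the proteoglycan collagen of vascular and epithelial basement membranes from which endostatin is cut, had 5 peaks, the most of any member. Their scores were 6.17, 7.17, 7.17, 9.16 and 11.8, so 4 of 5 were above the median of all peaks. All 5 lay in intron 2 of 41 of the long transcript, between the 2 curated starts of the gene, 19455 to 48002 bp after the outer start. Because the list measures to the nearest start, 3 of them read as upstream of the inner start, by 17051, 16592 and 4823 bp. Of the 5 peaks 4 held an NFI full site, and in the peak of score 6.17 it was exact. That peak is shown because it is the highest-scoring exact site among the basement-membrane genes for which a sequence is printed. It lies on an old MLT1E1 repeat.
Col18a1 (chr10:77144513-77144685, - strand): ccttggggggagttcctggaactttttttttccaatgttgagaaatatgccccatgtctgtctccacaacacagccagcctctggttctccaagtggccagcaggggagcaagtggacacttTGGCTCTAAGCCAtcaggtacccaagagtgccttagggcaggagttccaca

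The other basement-membrane-associated collagens, Col7a1 (the anchoring fibrils), Col15a1 and Col17a1 (a hemidesmosome protein), were named by no peak. Col15a1 nevertheless held a peak of score 8.37 in intron 28 of 39, which the list assigned to Tgfbr1, a TGF-beta receptor whose TSS was 57401 bp away.

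**Figure D3:**
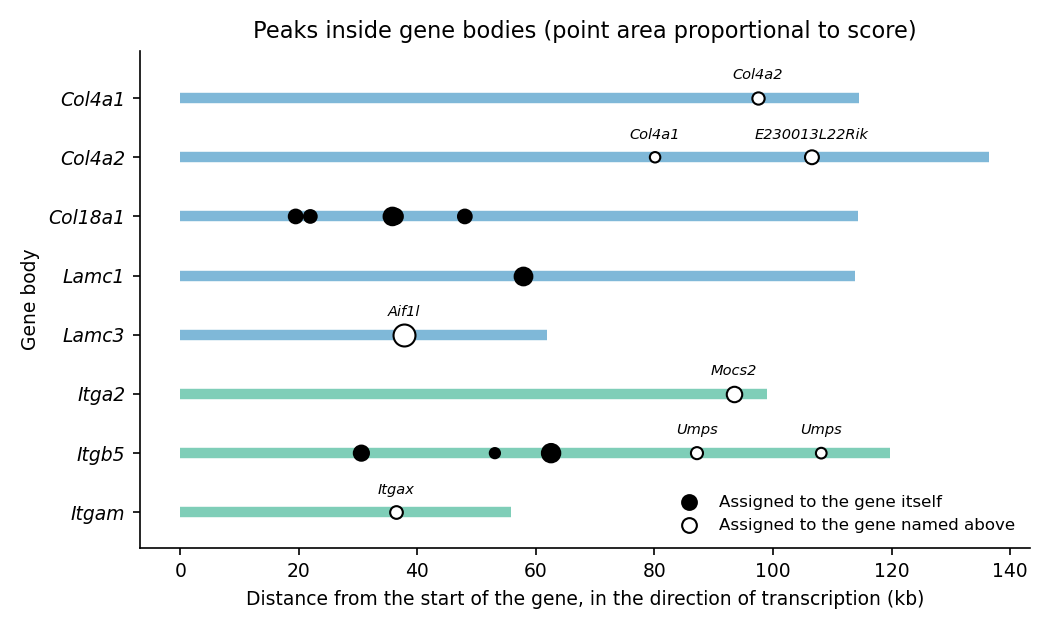
Peaks inside 8 gene bodies (rows), placed by their distance in kb from the start of the gene in the direction of transcription. Bars are gene bodies to scale, filled points are peaks that the list assigned to the gene itself, open points are peaks assigned to the gene written above them, and the area of a point is proportional to its score. The peaks of Col4a1 and Col4a2 lie 80058 bp or more from their shared start, and the 18.5-score peak of Lamc3 is assigned to Aif1l.

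Among the laminins, a peak named 3 of 5 alpha chains (Wilson interval 23.1 to 88.2%) and 2 of 3 beta chains (20.8 to 93.9%). The share over all protein-coding genes, 37.1%, lay inside both intervals. Lama5, the alpha chain of most adult epithelial and vascular basement membranes, had 3 peaks, of score 8.37 at 1939 bp upstream, 9.96 at 7997 bp and 12.9 at 17948 bp downstream, in introns 2 and 3 of 78. All 3 were above the median score. Lama3, the epithelial alpha chain of hemidesmosome contacts, had a single peak of score 3.78, the lowest of the members, in intron 12 of 74. It lay 96873 bp after the outer start and 73909 bp before the inner start from which the short form is made. Lama4, an alpha chain of vascular basement membranes, had a peak of score 3.98 at 49 bp from the TSS. Lama1 and Lama2 had none.

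Of the beta chains, Lamb1, the common partner in the adult laminins, had a peak of score 5.38 at 29372 bp, and Lamb3, the epithelial beta chain, had peaks of score 5.98 at 13894 bp and 12.5 at 28178 bp. All 3 were in introns. Lamc1, the most widely used gamma chain, had a promoter peak of score 8.56 at 616 bp upstream, a peak of score 12.0 at 57890 bp in intron 1 of 27, and a peak of score 5.38 at 7646 bp upstream on a LINE repeat (L1_Mur3). No peak named Lamb2 or Lamc3, and both bodies held one all the same. In Lamc3 it was in intron 18 of 27, scored 18.5, more than any peak assigned to a laminin, and was given to Aif1l, 25317 bp away. In Lamb2 it scored 4.78, was 440 bp upstream of Usp19 and belonged to the promoter class of that gene.

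Chains that assemble together were named together in Lama5 with Lamb1 and Lamc1, and in Lama4 with Lamb1 and Lamc1. This is a reading of the gene names, with no test. The single peaks of Lama4 (score 3.98) and Lamb1 (5.38) were below the median of all peaks, 6.57. No peak named Lamb2, so no set of chains that includes it was complete. The Lamc1 promoter peak and the strongest Lama5 peak are given because they contrast. The Lamc1 promoter holds no NFI full site within these letters, while the Lama5 intron peak, on an MLT1K repeat, holds one with 1 mismatch, in capitals.
Lamc1 promoter (chr1:153333316-153333488, - strand): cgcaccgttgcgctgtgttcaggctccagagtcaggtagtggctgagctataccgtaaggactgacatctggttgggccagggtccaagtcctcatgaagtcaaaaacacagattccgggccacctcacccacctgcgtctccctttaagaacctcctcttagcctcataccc
Lama5 intron 3 (chr2:180207825-180207997, - strand): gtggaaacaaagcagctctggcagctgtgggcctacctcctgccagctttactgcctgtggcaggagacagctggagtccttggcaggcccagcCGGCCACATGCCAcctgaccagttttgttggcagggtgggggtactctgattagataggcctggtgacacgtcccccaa

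The integrin alpha subunits are grouped by what they bind. All 3 laminin receptors were named by a peak (Wilson interval 43.9 to 100%). Of the 4 collagen receptors 1 was (4.56 to 69.9%), and the 2 intervals overlapped. Over all protein-coding genes 37.1% were named, below the first interval and inside the second. The integrin groups held 2 to 8 genes each, and no difference between them or from that share was tested. Itga3 had a peak of score 10.8 at 3723 bp in intron 1 of 25. Itga6, which pairs with Itgb4 in hemidesmosomes, had peaks of score 7.37 at 96 bp, 4.78 at 17002 bp and 11.8 at 25550 bp. Itga7, the laminin receptor best known from muscle, had a peak of score 15.1 at 4834 bp in intron 1 of 24. Of these 5 peaks 4 were above the median of all peaks and 1, at Itga7, held the NFI full site.

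Of the 4 collagen-receptor alpha subunits only Itga1 was named, with a peak of score 8.96 at 150 bp in exon 1 and a peak of 7.17 at 5637 bp in intron 1, both with the full site. Itga2, Itga10 and Itga11 were not. Itga2, the other epithelial collagen receptor, held a peak of score 9.16 in intron 28 of 29, which the list assigned to Mocs2, 20478 bp away.

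Of the alpha subunits that recognise the RGD sequence of fibronectin and vitronectin, 3 of 4 were named (Wilson interval 30.1 to 95.4%). Itga5, the fibronectin receptor, had a promoter peak of score 9.76 at 169 bp upstream with an exact NFI site, and a peak of score 4.98 in intron 1. Itgav, the subunit of the vitronectin receptors, had a promoter peak of score 7.97 at 68 bp upstream with 1 site. The RefSeq gene body of Itgav begins farther upstream than this TSS, so the peak also lay 2026 bp inside the body and was counted there. Itga2b, the platelet subunit, had the second highest score of the members, 15.7 at 2760 bp, in intron 4 of 29 and on a CpG island. Itga8 had none. The Itga5 promoter peak is shown because it is the member promoter with an exact site.
Itga5 promoter (chr15:103366874-103367046, - strand): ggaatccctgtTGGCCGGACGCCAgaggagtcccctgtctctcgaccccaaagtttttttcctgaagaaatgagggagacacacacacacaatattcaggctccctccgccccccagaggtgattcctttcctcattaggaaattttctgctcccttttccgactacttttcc

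Itga9 had 3 peaks with scores from 5.98 to 8.17, all with the full site, and its relative Itga4 had none. The leukocyte subunits Itgad, Itgae, Itgal and Itgam were not named, and the single peak of Itgax (score 6.17) lay in intron 12 of 29 of Itgam, on a LINE repeat. Of the beta subunits 4 of 8 were named (Wilson interval 21.5 to 78.5%). Itgb1, the partner of most alpha subunits, had 2 peaks of low score, 4.98 at 44 bp and 3.98 at 67500 bp upstream. Itgb4, the hemidesmosome beta subunit, had a peak of score 9.76 at 586 bp in intron 1 of 39. Itgb5, a partner of Itgav, had 3 peaks with scores 8.76, 3.98 and 12.9 in introns 2, 4 and 5 of 14, and Itgb6, the epithelial partner of Itgav, had 2 in intron 1, of score 5.58 and 4.38. Itgb2, the beta subunit of leukocytes, and Itgb3, Itgb7 and Itgb8 had none. The Itgb5 peak with the exact site is given as the highest-scoring peak with such a site among all members.
Itgb5 intron 5 (chr16:33892131-33892303, + strand): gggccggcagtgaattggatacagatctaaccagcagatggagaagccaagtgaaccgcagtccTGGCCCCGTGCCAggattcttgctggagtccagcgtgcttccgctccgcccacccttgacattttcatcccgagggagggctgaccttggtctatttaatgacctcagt

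**Figure D4:**
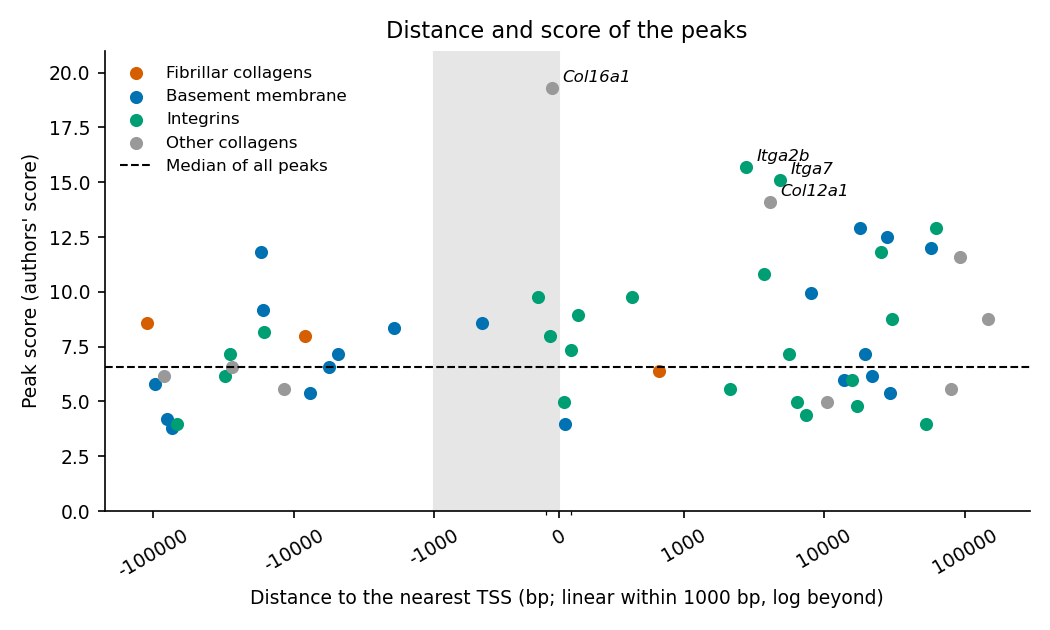
Score (vertical axis, authors' score) against distance to the nearest TSS (horizontal axis, bp, linear within 1000 bp and logarithmic beyond, negative upstream) for the 54 peaks, coloured by class. The grey band marks 1000 bp upstream of the TSS, with 4 peaks, and the dashed line the median score of all peaks (6.57). The highest score, of Col16a1, lies in the grey band, and Itga2b, Itga7 and Col12a1 lie 2760 to 4834 bp downstream.

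Among the remaining collagens, a peak named 3 of 9 FACIT collagens (fibril-associated, with interrupted triple helices), 2 of 8 beaded-filament and related collagens, 1 of 3 network-forming collagens and 0 of 3 transmembrane collagens. The share over all protein-coding genes, 37.1%, lay inside the Wilson interval of each of these groups. Col16a1, a FACIT collagen, had the highest score of all members, 19.3 at 53 bp upstream of its TSS, higher than 97.9% of all peaks. Col12a1, a FACIT collagen of type I fibrils, had peaks of score 14.1 at 4090 bp in intron 2 of 65 and 5.58 at 11758 bp upstream. Col26a1 had 2 peaks in intron 3 of 12, of score 5.58 at 80194 bp and 11.6 at 92135 bp, and both had exact NFI sites. Col14a1 had 2 peaks upstream, one of them in the last intron of Deptor. Col28a1 and Col8a2 had 1 each.

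The genes without a peak in these classes were Col9a1, Col9a2, Col9a3, Col19a1, Col20a1, Col22a1, all 6 collagen VI genes (Col6a1 to Col6a6), Col8a1, Col10a1, Col13a1, Col23a1 and Col25a1. The Col16a1 promoter is shown for its score and the stronger Col26a1 peak for its exact site. Of the Col16a1 peak the 116 bases upstream of the gene are printed, with a site of 1 mismatch.
Col16a1 promoter (chr4:130047701-130047816, + strand): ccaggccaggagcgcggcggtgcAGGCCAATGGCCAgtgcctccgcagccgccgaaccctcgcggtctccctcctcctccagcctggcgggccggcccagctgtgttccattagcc
Col26a1 intron 3 (chr5:136790994-136791166, - strand): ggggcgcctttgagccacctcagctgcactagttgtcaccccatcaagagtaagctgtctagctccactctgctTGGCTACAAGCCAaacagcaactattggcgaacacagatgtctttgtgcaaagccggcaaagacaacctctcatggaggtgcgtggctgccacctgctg

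The NFI full site was more frequent in the higher-scoring peaks. Of the member peaks at or above the median score of all peaks, 23 of 32 held it (71.9%, 54.6 to 84.4%), against 9 of 22 below (40.9%, 23.3 to 61.3%). The intervals of the 2 groups of member peaks overlapped. Over all peaks the shares were 59.5% and 43.7%, in the same order and each inside the interval of the members. Near promoters the site was rarer over all peaks, in 39.0% of those within 1000 bp of the TSS and 56.7% of those beyond. The member peaks had the same order, with 4 of 10 (40%, 16.8 to 68.7%) and 28 of 44 (63.6%, 48.9 to 76.2%), and these intervals overlapped. The middle of the nearest best site lay a median of 27 bp from the peak centre in the members and 24 bp in all peaks, and within 50 bp in 24 of 32 (75.0%) and 81.1%. By class the site was found in 1 of 3 fibrillar collagen peaks, 12 of 19 basement-membrane peaks, 12 of 23 integrin peaks and 7 of 9 peaks of the other collagens. Neither the full site nor a single arm TTGGCA was present in 11 member peaks. A match to letters is not a measured binding site.

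**Figure D5:**
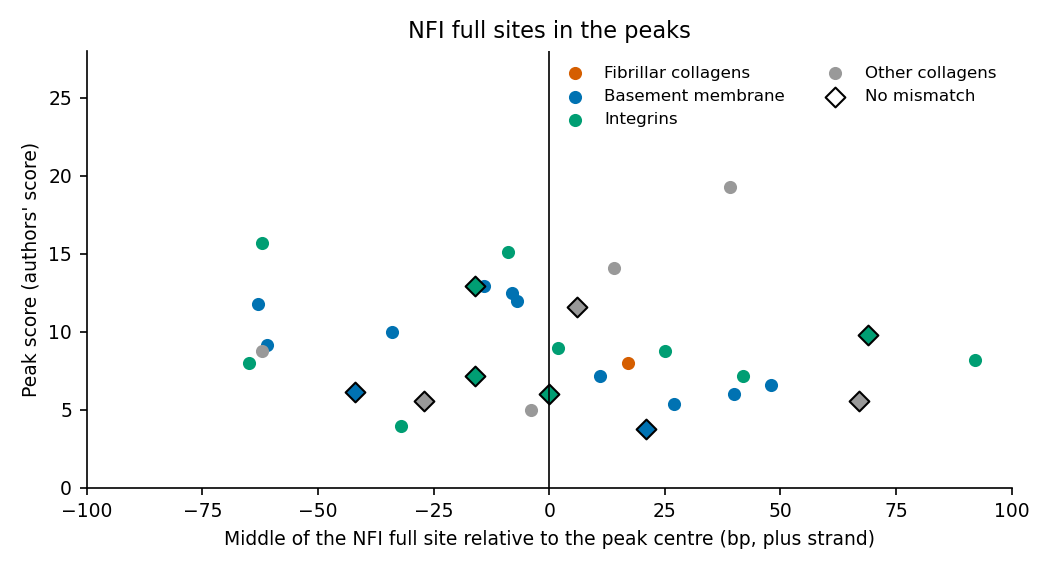
Score of the 32 member peaks with an NFI full site (vertical axis, authors' score) against the distance of the middle of the best site from the peak centre (horizontal axis, bp, plus strand). Colours give the class and diamonds the sites without mismatch. The sites lie on both sides of the centre, 24 of 32 within 50 bp, and diamonds occur from score 3.78 to 12.9.

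The list assigns a peak to the nearest start, which left 18 peak and gene pairs in which a peak inside a member was given to another gene. When every gene body that holds a peak was counted, 35 of 81 members had one (43.2%, 33 to 54.1%), against 31 by the list's names. By the same rule 26.9% of all protein-coding genes held a peak, and 50% of those of 50 kb or longer, against 24 of 51 members of that length (47.1%, 34.1 to 60.5%). Col15a1, Col27a1, Itga2, Itgae, Itgam, Lamb2 and Lamc3 joined, while others, such as Col11a1 and Itgax, whose peaks lay outside their bodies, dropped out. By class the counts were 2 of 11 fibrillar collagens, 12 of 21 basement-membrane genes, 15 of 26 integrins and 6 of 23 other collagens, in the same order of shares as before. The fibrillar Col27a1 held a peak of score 3.59 in intron 19 of 60 that was assigned to Mir455, so the pattern of absent fibrillar chains depended on the assignment for this gene. Further cases were Itgb5 (scores 5.58 and 4.38, given to Umps), Itga2b (7.17, Fam171a2), Col14a1 (7.17, Mrpl13), Col16a1 (4.78, Pef1), Itga5 (4.58, Mir6963), Lamb1 (3.78, Dld) and Itga9 (3.78, Ctdspl). In Itgae a peak of 4.58 was the promoter peak of Haspin, a gene inside it.

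The genes that make, link, sense and remove these proteins were read from lists of gene names. Of 29 genes of collagen biosynthesis 13 were named by a peak (44.8%, 28.4 to 62.5%), 4 of them at the promoter. Over all protein-coding genes 37.1% were named, inside this interval, and 10.7% had a peak from 1000 bp upstream to the TSS. P4ha2, a prolyl hydroxylase that stabilises the triple helix, had a peak of score 11.6 at 27 bp upstream and one of 17.9 at 11215 bp. Its partner subunit P4hb had a promoter peak of 6.37, P3h2, another prolyl hydroxylase, one of 7.97, and Loxl4, a cross-linking lysyl oxidase, one of 4.98. The cross-linking genes Lox, Loxl1, Loxl2 and Loxl3 had none.

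Of 8 basement-membrane linkers 3 were named, Bcam (a laminin receptor, 6.37 at 104 bp upstream), Dag1 (dystroglycan, 14.3 at 10907 bp upstream) and Hspg2 (perlecan), but neither nidogen. Of 6 collagen receptors other than integrins 3 were named. Ddr1, the epithelial collagen-binding kinase, had 6 peaks from 5.18 to 9.96, 1 of them 11 bp upstream of the TSS, while Ddr2, its counterpart in fibroblasts, had none. Mrc2, a receptor that takes up collagen, had a peak of 13.7 at 60835 bp. Of 19 genes of collagen degradation 3 were named (15.8%, 5.52 to 37.6%), Mmp15, with a promoter peak of 8.76, and the inhibitors Timp2 and Timp3, the latter with 15.7 at 39377 bp. The share over all protein-coding genes, 37.1%, lay inside this interval. It also lay inside those of the linkers (13.7 to 69.4%) and of the non-integrin receptors (18.8 to 81.2%).

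The list of integrin adaptors, which also holds kinases such as Ptk2 and Src, had the highest share of these lists, 19 of 23 (82.6%, 62.9 to 93%). Over all protein-coding genes the share was 37.1%, and over those of 50 kb or longer 52.6%, both below this interval. The list was chosen with earlier results of these data known, and the difference was not tested. The adaptor Lims1 had the highest score of the list, 20.5 at 420 bp upstream of its TSS. Tns3, a tensin, had 7 peaks with scores from 4.58 to 17.3, the highest at 40 bp upstream, and Pxn (paxillin) had a promoter peak of 4.38. In all, 3 of the 23 had a peak from 1000 bp upstream to the TSS, beside 10.7% of all protein-coding genes. Ilk, Fermt3, Lims2 and Tns4 were not named. The lists differ in gene length, and its part in these shares was not tested.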

How the data were processed

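ChIP-Seq of NFIC from mouse pancreas (3 ChIP libraries, 1 input library) was analysed from the merged peak list that the authors deposited. Per the labels, the authors' processing notes name BWA, Picard and MACS2 with the mm10 build. The header of the list names the annotatePeaks.pl program of HOMER. The study's methods name HOMER for calling, merging and annotating peaks, in a paragraph on published ChIP-Seq data it reanalysed. For the NFIC libraries the versions, the thresholds and whether peaks were called per library or together were not given in the sources used here. The deposited list holds, for each peak, a score, the focus ratio (a fraction, 0 to 1, of reads placed as a point source would place them) and the distance to the nearest TSS. It has 0 columns with values per library. A merged list hides the spread between libraries, and naming the nearest start moves peaks between neighbouring genes.

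Member peaks were taken by gene name, and all 81 members matched RefSeq genes of GRCm38 (mm10), from which gene bodies, starts and sequences were read. Members and gene lists were chosen with earlier results of these data known. Shares carry 95% Wilson intervals and medians binomial order-statistic intervals, over genes or peaks, which are not replicates and give counting error only. No test was run. Genes were described in full for fibrillar collagens, collagen IV, laminins, promoter peaks, the 10 highest scores and the genes with most peaks, and the others by counts; 1 gene of the set enters the counts and is otherwise not reported here. NFI sites were searched by script, which was tested on simulated sequences. Alternatives changed the score floor, the window, the assignment, the motif and the counting of peaks. Python 3.11, pandas 2.3.3, numpy 2.4.6, scipy 1.17.1 and matplotlib 3.10.9 were used.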

Additional observations from a re-analysis of the deposited data

How the results depend on the processing

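Of 125 recomputed values over 26 results and 11 settings, 111 stayed within their interval or within 1.5 times the count, and 14 moved. With peaks at or above the median score only, the NFI share of member peaks was 71.9%, basement-membrane genes with a peak numbered 5, and the share of intron peaks of the fibrillar collagens was 0%, as it was with 1 peak a gene, where the median score of member peaks was 8.76. With no mismatch the NFI share was 16.7%. From -1000 to 1000 bp, 10 members, 1 fibrillar collagen, 2 basement-membrane genes and 6 integrins had a promoter peak; from -5000 bp to the TSS, 3 basement-membrane genes; and by the promoter-TSS class of the list, 7 members, 2 basement-membrane genes and 4 integrins. The fibrillar median distance went from 8299 to 59666 bp with the score floor and with 1 peak a gene, inside its interval over 3 peaks, and the median score of the other collagens from 6.57 to 10.2 with 1 peak a gene. Fewer peaks and wider windows change these counts by construction. Peaks of a gene within 1000 bp counted once, autosomes only and the gene bodies of RefSeq moved none of the results recomputed under them. Without counts, depth could not be used to judge an absent peak, and an absent peak says only that none was in the list. No paired analysis was possible because the list has no column per library.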

Other observations

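Other letter motifs were searched on both strands in the same 200 bases. CAGCTG, an E-box of the kind bound by acinar bHLH factors, was present in 16 of 54 member peaks (29.6%, Wilson interval 19.1 to 42.8%) and in 21.4% of all peaks. CAAGGTCA, the site of NR5A2, was present in 4 of 54 (7.41%, 2.92 to 17.6%), at Col18a1, Col28a1, Itgb5 and Itgb6, and in 2.04% of all peaks, which lies below that interval. The motif was 1 of 7 short motifs read, and the difference was not tested. GGGCGG, bound by SP factors, was present in 9 peaks (16.7% against 21.1% of all peaks), 5 of them at integrin genes within 1000 bp of the TSS. TGANTCA (AP-1) was present in 3 peaks, at Col4a1, Lamb1 and Lamb3 (5.56% against 5.26% of all peaks). GATAAG was present in 2 (3.70% against 7.74%) and TGTTTAC (FOX factors) in 1 (1.85% against 3.99%).

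Repeats held 7 of 54 member peaks (13%, 6.42 to 24.4%), at Col11a1, Col18a1, Itga1, Itgax, Itgb6, Lama5 and Lamc1, against 10.5% of all peaks. Of the 54 peaks 9 were upstream of the start to which they were assigned and yet inside an intron, of another gene or of a longer transcript of the same gene.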
